A study of Mus musculus with 15 samples.

Results

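The Hox genes encode homeodomain transcription factors, and they were followed here in RNA-seq libraries of mouse retinal pigment epithelium (RPE) cells with and without *Prom1*. Members were taken by symbol, as every row named Hoxa, Hoxb, Hoxc or Hoxd plus a paralog number. Of the 39 mouse Hox genes, 16 are listed among the 20910 genes of the cultured-cell table and 0 among the 25038 genes of the RPE/choroid table. The cultured cells (mRPE) were isolated from pooled adult C57/BL6J mice and immortalized with HPV E6/E7, so all mRPE groups carry these viral genes. *Prom1* was disrupted in them with Cas9 and 1 guide RNA, and the edited cultures come as 2 lines, labelled *Prom1*KO 22 (KO22) and *Prom1*KO 26 (KO26). There were 4 WT, 3 KO22 and 2 KO26 libraries. Their names fall in 2 series, 8995 with 1 library of each group and 9262 with 3 WT, 2 KO22 and 1 KO26 library. The guide targeted exon 5, and the study's methods describe the lines as carrying different deletions in *Prom1*. The sources used here do not say whether the WT libraries received Cas9 and a scrambled guide, and the study calls the libraries of a group biological replicates without describing how the cultures were kept apart, so p-values measure the spread between libraries, which may be in part technical. The tissue libraries, 3 WT and 3 *Prom1*-KO, are of RPE/choroid, in which *Prom1* was deleted from the RPE in the animal with Cre and loxP, and no promoter for the Cre or age of the animals is in their labels.

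In the mouse, Hox genes lie in 4 clusters, and their order along the chromosome mirrors the order of their domains along the body axis, with low paralog numbers toward the hindbrain and high numbers toward the tail and the distal limb. Polycomb complexes keep a cluster silent where it is not used and trithorax complexes keep it active, and the chosen set of active genes is often retained by cells in culture as a record of their position. The forebrain and the optic cup, from which the RPE arises, develop without Hox expression and are patterned by other homeobox genes such as *Otx2*, *Six3* and *Rax*. Hox proteins bind DNA together with TALE homeodomain partners of the Meis, Pbx and Pknox families.

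The sequence before the start of the canonical transcript is shown for 2 members whose windows hold no annotated exon. They are *Hoxa7*, the member with the highest level per kilobase, and *Hoxb3*, the member with the largest fold change in KO22. Each run holds the 250 bases upstream of the canonical transcript's start, read from GRCm39 and written 5′ to 3′ on the gene's own strand. The windows are chr6:52194486-52194735 (minus strand) and chr11:96213902-96214151 (plus strand). The *Hoxa7* window lies inside the annotated gene (chr6:52191471-52198834), whose 5′ end is farther upstream than the canonical start. Capitals mark CACGTG, the E-box letters of basic helix-loop-helix factors, and TGATNNAT, the letters of composite Hox-Pbx sites, each searched on both strands.
Hoxa7: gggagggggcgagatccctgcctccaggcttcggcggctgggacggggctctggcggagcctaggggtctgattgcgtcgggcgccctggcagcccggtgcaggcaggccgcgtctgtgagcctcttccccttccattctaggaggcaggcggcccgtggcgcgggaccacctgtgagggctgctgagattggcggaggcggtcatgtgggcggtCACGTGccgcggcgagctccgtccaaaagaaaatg
Hoxb3: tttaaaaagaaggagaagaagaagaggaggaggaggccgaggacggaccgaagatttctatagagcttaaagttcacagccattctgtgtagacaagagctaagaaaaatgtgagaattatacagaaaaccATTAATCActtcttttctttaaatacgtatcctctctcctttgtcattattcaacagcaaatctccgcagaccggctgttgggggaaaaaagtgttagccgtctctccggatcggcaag

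*Hoxa7* held CACGTG with its first base 35 bases before the start, and *Hoxb3* held TGATNNAT 119 bases before its start. Of the 16 Hox genes listed in the mRPE table, 5 held CACGTG in this window and 4 held TGATNNAT. Of the 23 not listed, 4 held CACGTG and 4 held TGATNNAT. Over the windows of 21757 protein-coding genes the shares were 6.26% and 7.0%. The CG dinucleotide occurred a median of 14 times in the windows of the listed Hox genes, 12 times in those of the Hox genes not listed and 8 times over all protein-coding genes. The motifs were chosen after the sequences were seen, and a match is a run of letters and not a measured binding site.

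The mRPE libraries held 8076188 to 27537863 counts and the RPE/choroid libraries 48154444 to 61766179. Levels are given as CPM, counts scaled to the TMM-adjusted library size within each table. The mRPE table lists 3 of 12 RPE markers (*Best1*, *Mitf* and *Pmel*), and *Rpe65*, *Rlbp1*, *Rgr*, *Lrat*, *Ttr*, *Tyr*, *Tyrp1*, *Dct* and *Otx2* are among the 9 it does not list. The summed level of the RPE markers was 8.18 to 12.8 CPM in WT, 15.5 to 38.7 CPM in KO22 and 5.38 to 9.14 CPM in KO26. The 3 genes differed in KO22. *Mitf* was 20.1, 12.5 and 10.4 CPM there, against 3.02 to 6.77 CPM in WT. *Best1* was 17.4 CPM in 8995-SB-2 but 4.05 and 3.34 CPM in series 9262, within its WT range of 3.15 to 4.23 CPM. *Pmel* was lower in KO22, at 1.21 to 1.78 CPM against 1.92 to 2.26 CPM in WT. Of 9 fibroblast markers 8 are listed, and their summed level was 12817 to 17522 CPM in WT, 5576 to 8683 CPM in KO22 and 19884 to 21806 CPM in KO26. The 4 Y-linked genes *Ddx3y*, *Eif2s3y*, *Kdm5d* and *Uty*, chosen after their values were seen, separated KO22 from the other mRPE libraries. They lay at 43.3 to 62.1 CPM in WT and 21.1 to 59.2 CPM in KO26, but at 0.173 to 0.865 CPM in the KO22 library 8995-SB-2, at 5.01 to 8.68 CPM in 9262-SB-4 and at 4.03 to 7.84 CPM in 9262-SB-5. In the tissue the *Prom1*-KO library 12965-SB-06 stood apart, with a TMM factor of 0.488 against 1.07 to 1.33 in the other 5 libraries.

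The first question was which Hox genes the 2 tables list and at what level. In mRPE the listed genes formed runs within the clusters. Hoxa was listed up to *Hoxa10*, with 9 of its 11 genes, without *Hoxa11* and *Hoxa13*. Hoxb was listed from *Hoxb2* to *Hoxb7*, 6 of its 10 genes, without *Hoxb1* at one end and *Hoxb8*, *Hoxb9* and *Hoxb13* at the other. Of the 9 Hoxd genes 1 was listed, *Hoxd8*, and of the 9 Hoxc genes 0 were listed. The listed genes cover the anterior paralog groups 1 to 3 and the central groups 4 to 8, and reach the posterior groups 9 to 13 only with *Hoxa9* and *Hoxa10*. The authors removed genes with low counts before depositing the table, whose lowest gene has 18 counts summed over the 9 libraries, so no level can be given for the 23 others.

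In GRCm39 the Hoxa genes span chr6:52132570-52237822, the Hoxb genes chr11:96085106-96259082, the Hoxc genes chr15:102829538-102945278 and the Hoxd genes chr2:74498654-74595486. Per kilobase of canonical transcript, which allows genes to be compared, *Hoxa7* (chr6:52191471-52198834), a gene of the thoracic axial skeleton, had the highest level in WT mRPE at 8.37 ± 0.446 CPM per kb (SD, n = 4). *Hoxa5* (chr6:52178734-52181567), needed for lung and cervicothoracic patterning, followed at 4.97 ± 0.342 CPM per kb, and its 4 libraries did not overlap those of *Hoxa7*. *Hoxa6*, *Hoxa10* and *Hoxa3* came next at 3.64 ± 1.08, 3.43 ± 0.565 and 2.98 ± 0.516 CPM per kb. The ranges of *Hoxa5*, *Hoxa6*, *Hoxa10* and *Hoxa3* overlapped from each to the next in this order. *Hoxa2*, *Hoxa4* and *Hoxa9* were lower, from 1.15 ± 0.396 CPM per kb for *Hoxa2* down to 0.543 ± 0.175 for *Hoxa9*, and *Hoxa3* and *Hoxa2* did not overlap.

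In Hoxb the level was highest at the 5′ end of the listed run, at 2.46 ± 0.637 CPM per kb for *Hoxb7* (chr11:96177449-96180988). It was 1.35 ± 0.332 CPM per kb for *Hoxb6*, 1.02 ± 0.311 for *Hoxb5*, 0.948 ± 0.157 for *Hoxb3*, 0.657 ± 0.248 for *Hoxb4* and 0.598 ± 0.121 for *Hoxb2*. Each gene's range over the WT libraries overlapped that of the next in this order. *Hoxd8* (chr2:74534959-74538297) stood at 2.12 ± 0.405 CPM per kb. The runs thus peaked at paralog 7 in both Hoxa and Hoxb. The gap between *Hoxa7* and *Hoxa5* narrowed with the length of all annotated exons in place of the canonical transcript, to 5.83 against 4.97 CPM per kb, and *Hoxa3* fell to 1.12 CPM per kb.

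**Figure D1:**
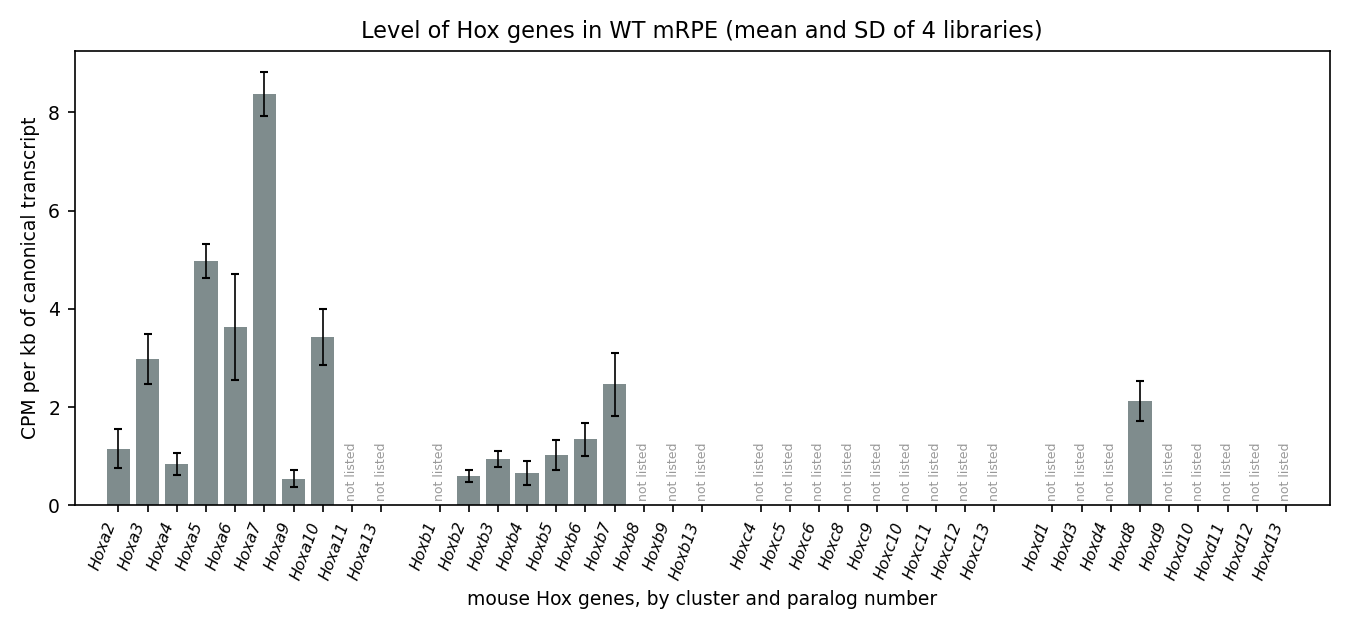
Level of Hox genes in WT mRPE in CPM per kb of canonical transcript (vertical axis, linear from 0), by cluster and paralog number. Bars are means and lines the SD of 4 libraries, and the 23 genes that the table does not list are marked. *Hoxa7* is the tallest bar at 8.37 CPM per kb, and *Hoxb7* is the tallest of Hoxb at 2.46.

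KO22 was compared with WT mRPE to ask what the loss of *Prom1* changes in these cells. All 16 listed Hox genes were lower in KO22. Every KO22 library lay below every WT library for each of the 16, whereas this held for 25.3% of all genes tested. A gene was called at an adjusted p under 0.05 in edgeR's quasi-likelihood test and an absolute log2 fold change over 1.2. By this rule 16 of 16 members were called lower, against 13.8% of all genes tested. A gene entered the test with 5 counts in 3 or more libraries. No member had more than 3 counts in 8995-SB-2, so none could enter through the 3 KO22 libraries alone. All 16 entered through their WT counts, whereas the shares over all genes also hold genes that entered through KO22. The median log2 fold change was -3.55 over the members and -0.03 over all genes. Whether fewer cells expressed a gene or each cell held less of its RNA cannot be told apart in bulk libraries. Values below are CPM in the order of the library names, series 8995 first.

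Among the anterior genes, the KO22 libraries kept at most 0.820 CPM. *Hoxa2*, the selector of the second pharyngeal arch, had 2.34, 2.81, 2.26 and 4.45 CPM in WT and 0, 0.434 and 0.310 CPM in KO22, with a change of -3.42 (SE 0.52, adjusted p = 0.000458) on the log2 scale. *Hoxa3*, needed for thymus and parathyroid, had 5.88, 8.91, 7.66 and 8.47 CPM in WT and 0.0865, 0.820 and 0.310 CPM in KO22, with a change of -4.06 (SE 0.38, adjusted p = 2.64e-05) on the log2 scale. The highest KO22 library was below the lowest WT library by a wide margin in both, and 8995-SB-2 held 0 counts of *Hoxa2* and 1 count of *Hoxa3*. *Hoxb2*, a gene of the facial motor region of the hindbrain, had 0.715, 1.17, 1.08 and 0.933 CPM in WT and 0, 0.0964 and 0 CPM in KO22, with a change of -4.27 (SE 0.68, adjusted p = 0.00061) on the log2 scale. *Hoxb3*, also a hindbrain gene, had 2.94, 3.50, 2.36 and 3.30 CPM in WT and 0, 0.0964 and 0.233 CPM in KO22, with a change of -4.69 (SE 0.51, adjusted p = 6.7e-05) on the log2 scale. Both hindbrain genes of Hoxb were at 0 counts in 8995-SB-2, and *Hoxb3* had the largest fold change of the 16. *Hoxb2* rests on few reads, with 2 counts over the 3 KO22 libraries, and the ratio of pooled counts, WT over KO22, was 20.9 with an exact 95% interval of 5.53 to 176, which covers counting error only.

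The central Hoxa genes include *Hoxa7* and *Hoxa5*, the members with the highest levels in WT, and all fell in KO22. *Hoxa7* had 16.7, 17.9, 15.7 and 16.9 CPM in WT and 0, 1.88 and 0.776 CPM in KO22, with a change of -4.10 (SE 0.51, adjusted p = 0.000138) on the log2 scale. *Hoxa5* had 8.74, 10.0, 8.84 and 9.76 CPM in WT and 0, 0.723 and 0.466 CPM in KO22, with a change of -4.39 (SE 0.44, adjusted p = 3.92e-05) on the log2 scale. Both had 0 counts in 8995-SB-2, where 420 and 220 counts were found in the WT library of the same series. *Hoxa6*, a thoracic patterning gene, had 2.62, 4.39, 2.26 and 3.44 CPM in WT and 0, 0.434 and 0.466 CPM in KO22, with a change of -3.31 (SE 0.51, adjusted p = 0.000485) on the log2 scale. *Hoxa4*, which patterns cervical vertebrae, had 1.83, 1.17, 1.37 and 1.00 CPM in WT and 0.259, 0.241 and 0.388 CPM in KO22, with a change of -2.18 (SE 0.40, adjusted p = 0.00151) on the log2 scale. *Hoxa4* had the smallest fold change of the 16 and was the one member with as many as 3 counts in 8995-SB-2. Among the posterior genes, *Hoxa9*, known for its role in blood stem cells, had 0.993, 2.26, 1.67 and 2.08 CPM in WT and 0, 0.193 and 0.233 CPM in KO22, with a change of -3.48 (SE 0.48, adjusted p = 0.000277) on the log2 scale. *Hoxa10*, needed in the uterus and the lumbar skeleton, had 10.9, 8.57, 8.35 and 7.54 CPM in WT and 0, 1.06 and 0.388 CPM in KO22, with a change of -3.97 (SE 0.53, adjusted p = 0.000226) on the log2 scale. The groups did not overlap for either.

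The central Hoxb genes behaved alike, at lower levels than *Hoxa7* and *Hoxa5*. *Hoxb4*, which expands blood stem cells when overexpressed, had 2.50, 1.10, 1.28 and 1.87 CPM in WT and 0.0865, 0.145 and 0.310 CPM in KO22, with a change of -3.18 (SE 0.51, adjusted p = 0.000632) on the log2 scale. *Hoxb5*, active in vagal neural crest, had 1.43, 2.54, 2.36 and 1.44 CPM in WT and 0, 0.145 and 0.310 CPM in KO22, with a change of -3.60 (SE 0.55, adjusted p = 0.000482) on the log2 scale. The highest KO22 library reached 0.310 and 0.310 CPM in them, below the lowest WT values of 1.10 and 1.43 CPM. *Hoxb6* had 2.62, 1.85, 1.87 and 3.01 CPM in WT and 0, 0.482 and 0.233 CPM in KO22, with a change of -3.08 (SE 0.56, adjusted p = 0.0014) on the log2 scale. *Hoxb7* had 2.90, 3.63, 2.16 and 4.02 CPM in WT and 0, 0.386 and 0.310 CPM in KO22, with a change of -3.62 (SE 0.51, adjusted p = 0.000306) on the log2 scale. *Hoxd8*, the one listed gene of its cluster, had 7.99, 5.83, 5.60 and 5.45 CPM in WT and 0.0865, 0.916 and 0.466 CPM in KO22, with a change of -3.49 (SE 0.45, adjusted p = 0.000178) on the log2 scale. The groups were separate in all 3, with 8995-SB-2 the lowest library each time.

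**Figure D2:**
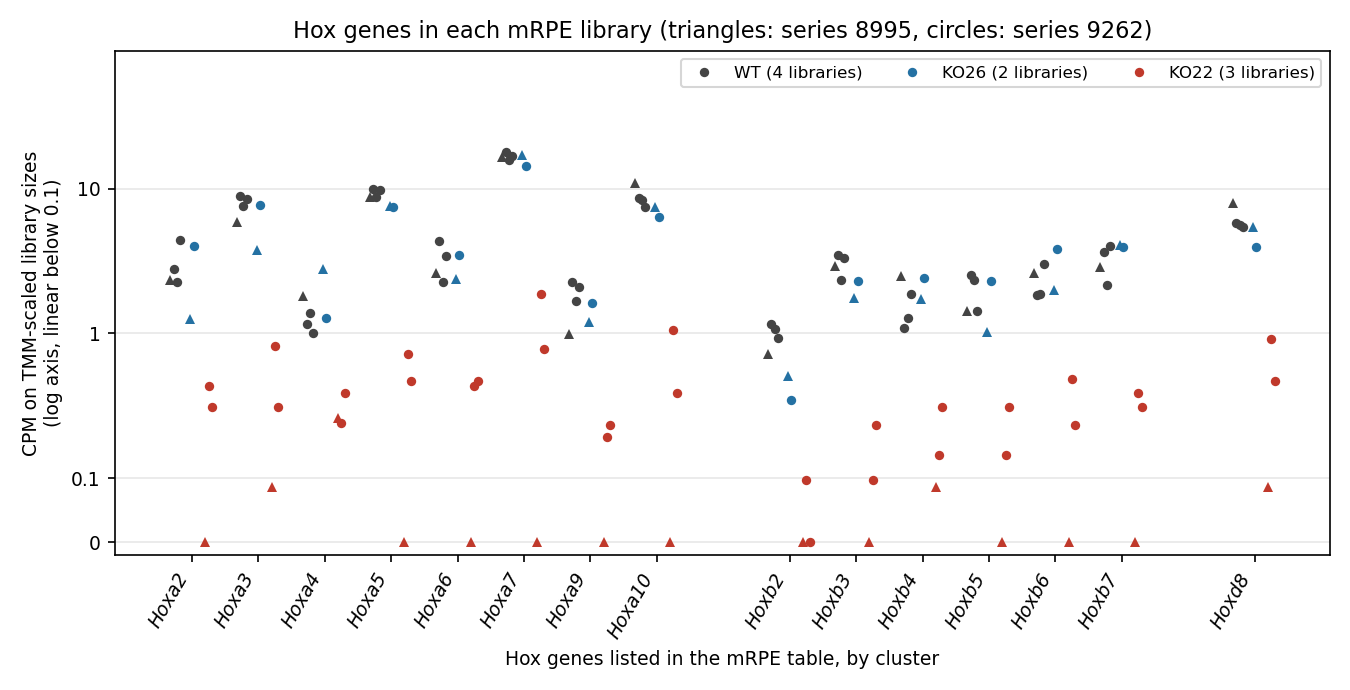
CPM of listed Hox genes in every mRPE library (vertical axis, logarithmic above 0.1 and linear below), by cluster. Points are single libraries, grey for WT, blue for KO26 and red for KO22, with triangles for series 8995 and circles for series 9262. Red points lie below all grey and blue points of the same gene in each of the genes shown, and most red triangles sit at 0.

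The KO22 libraries of the 2 series differed in how much Hox RNA was left. Summed over the 16 genes, the level was 74.1, 78.6, 67.0 and 77.1 CPM in WT and 66.2 and 69.5 CPM in KO26. In KO22 it was 0.519 CPM in 8995-SB-2, 8.39 CPM in 9262-SB-4 and 5.90 CPM in 9262-SB-5. The library 8995-SB-2 held 6 Hox counts in all, on 4 genes, against 1865 in the WT library of its series. The ratio of WT to KO22 on scaled counts was 143 in series 8995 (exact 95% interval 65.5 to 389.6) and 10.1 in series 9262 (8.86 to 11.5), where the intervals cover counting error only. The decrease in KO22 was thus present in both series. It was an order of magnitude larger in series 8995, which holds 1 KO22 and 1 WT library. A difference of the series and of its single KO22 library cannot be told apart.

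As a share of the WT mean of the same series, the summed Hox level was 0.700%, 11.3% and 7.95% in 8995-SB-2, 9262-SB-4 and 9262-SB-5. By cluster, in the same order, it was 0.653%, 11.05% and 7.28% for Hoxa, 0.660%, 10.3% and 10.6% for Hoxb and 1.08%, 16.3% and 8.28% for *Hoxd8*. Within a library, the remaining share was of the same order on the 3 chromosomes. Over single genes it ran from 3.16% to 21.5% in 9262-SB-4, with a median of 11.5%. In 9262-SB-5 it ran from 0% to 32.8%, with a median of 9.64%, and the highest share belonged to *Hoxa4* with few counts. The summed level of the 4 Y-linked genes, taken the same way, was 1.06%, 11.8% and 9.96% of WT in the same 3 libraries. The Hox and Y-linked shares moved together across the KO22 libraries, and the part of that in the Hox result was not tested. Whether RNA or cells of WT cultures contributed to the KO22 libraries of series 9262, and so to these remaining levels and to the difference between the series, was not tested either. In mRPE, 60 genes had a WT mean of at least 5 CPM and at most 1 count in 8995-SB-2. Among them were *Hoxa3*, *Hoxa5*, *Hoxa7*, *Hoxa10* and *Hoxd8*. The median share of the 60 was 3.56% in 9262-SB-4 (quartiles 1.38% and 9.84%) and 2.61% in 9262-SB-5 (quartiles 0.416% and 4.90%). This set was picked by its low counts in 8995-SB-2 and overlaps the Hox genes, so it is no independent reference for their shares.

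The size of the change followed from which KO22 libraries were used, but the calls did not. With series 9262 alone the 16 log2 fold changes ran from -4.29 to -1.93 and 16 were called. Without 9262-SB-4 they ran from -6.75 to -2.12, and without 9262-SB-5 from -5.51 to -2.51, again with 16 called. Single markers of other cell types differed between the groups as well, in both directions. Of the 8 fibroblast markers tested, 4 were called lower and 1 higher in KO22, beside 13.8% and 11.4% of all genes. In KO26 0 of these markers were called, beside 0.719% of all genes lower and 1.21% higher, with 4 negative and 4 positive values. Their sum, given above, was mostly *Col1a1*, *Col1a2* and *Col3a1*. The 3 listed of 5 endothelial markers (*Pecam1*, *Kdr* and *Plvap*) summed to 152 to 235 CPM in WT, 3.26 to 4.53 CPM in KO22 and 55.9 to 73.5 CPM in KO26. Nearly all of this was *Kdr*, which was called lower in KO22, while *Plvap* was called higher there at 1.82 and *Pecam1* was not called at -0.29 on the log2 scale. The 3 listed of 5 muscle markers (*Acta2*, *Myh11* and *Des*) summed to 590.1 to 1654 CPM in WT, 148 to 234 CPM in KO22 and 869 to 1772 CPM in KO26. Nearly all of this was *Acta2*, which was called lower in KO22, while *Myh11* had -0.12 and *Des* was too low to test there. The part of these markers in the Hox result was not tested, and *Cdh5*, *Tie1*, *Ckm* and *Acta1* are not listed.

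**Figure D3:**
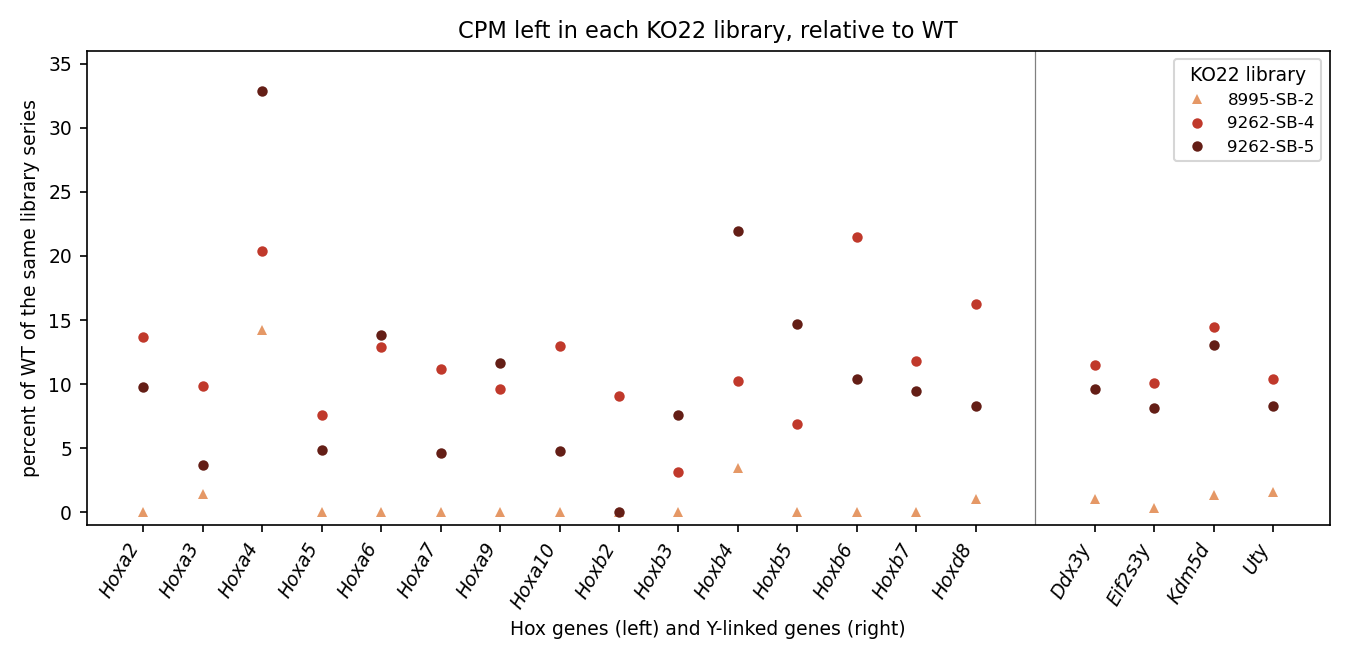
CPM left in each KO22 library as a percent of the WT libraries of the same series (vertical axis, linear from 0), for listed Hox genes and 4 Y-linked genes. The library 8995-SB-2 (triangles) is at 0% for most Hox genes, and the 2 libraries of series 9262 (circles) lie mostly between 3% and 25% for Hox genes and between 8.15% and 14.5% for the Y-linked genes.

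KO26 was compared with WT to ask whether the other edited line shows the same change. The study described both KO26 libraries as outliers and left them out of its own comparison. It did not pass the test for any member: 0 of 16 Hox genes were called in KO26, against 1.21% of all genes called higher and 0.719% called lower. With edgeR 0 of the 16 reached an unadjusted p under 0.05, and DESeq2 called 0 of 16 too. The log2 fold changes of the members named here ran from -0.94 for *Hoxb2* to 0.43 for *Hoxa4* (SE 0.33 to 0.71 over all 16), and over all 16 there were 10 negative and 6 positive values with a median of -0.05. The summed Hox level was 91.5% of WT, and by cluster 91.3% for Hoxa, 99.9% for Hoxb and 75.3% for *Hoxd8*. With 2 KO26 libraries these errors leave room for differences of the size measured.

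The KO26 libraries lay within the WT range for some members, and for others 1 or both lay outside it. *Hoxa7* had 17.1 and 14.3 CPM, *Hoxa5* 7.56 and 7.52 CPM and *Hoxa10* 7.52 and 6.36 CPM in 8995-SB-3 and 9262-SB-6. *Hoxa2*, *Hoxa3* and *Hoxa4* had 1.25 and 4.05, 3.76 and 7.75 and 2.78 and 1.27 CPM, and *Hoxa6* and *Hoxa9* had 2.37 and 3.47 and 1.21 and 1.62 CPM. Those of *Hoxa6* and *Hoxa9* lay within the WT range. *Hoxb4*, *Hoxb5*, *Hoxb6* and *Hoxb7* had 1.72 and 2.43, 1.02 and 2.31, 2.00 and 3.82 and 4.08 and 3.93 CPM. The values of *Hoxb4* lay within the WT range as well. For 6 of the 16 genes both KO26 libraries lay outside the WT range on one side, a share to be read against 24.7% of all genes. They include *Hoxa5*, *Hoxa10*, *Hoxb2*, *Hoxb3* and *Hoxd8*, all with lower values, such as 0.510 and 0.347 CPM for *Hoxb2*, 1.76 and 2.31 CPM for *Hoxb3* and 5.43 and 3.93 CPM for *Hoxd8*.

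The difference between the lines was tested directly. KO22 was lower than KO26 in 16 of 16 members called by edgeR, with log2 fold changes of -4.17 for *Hoxa5* to -2.60 for *Hoxa4* and adjusted p of at most 0.0151. Over all genes tested 10.7% were called lower and 7.56% higher in this contrast. Here too the members had entered the test through their counts outside KO22. Every KO22 library lay below both KO26 libraries for each of the 16, as for 24.6% of all genes. *Hoxb2* had the largest adjusted p, and without the KO26 library 8995-SB-3 its log2 fold change of -2.64 was no longer called. Both comparisons with KO22 share the KO22 libraries, and the 2 comparisons with WT share the WT libraries.

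**Figure D4:**
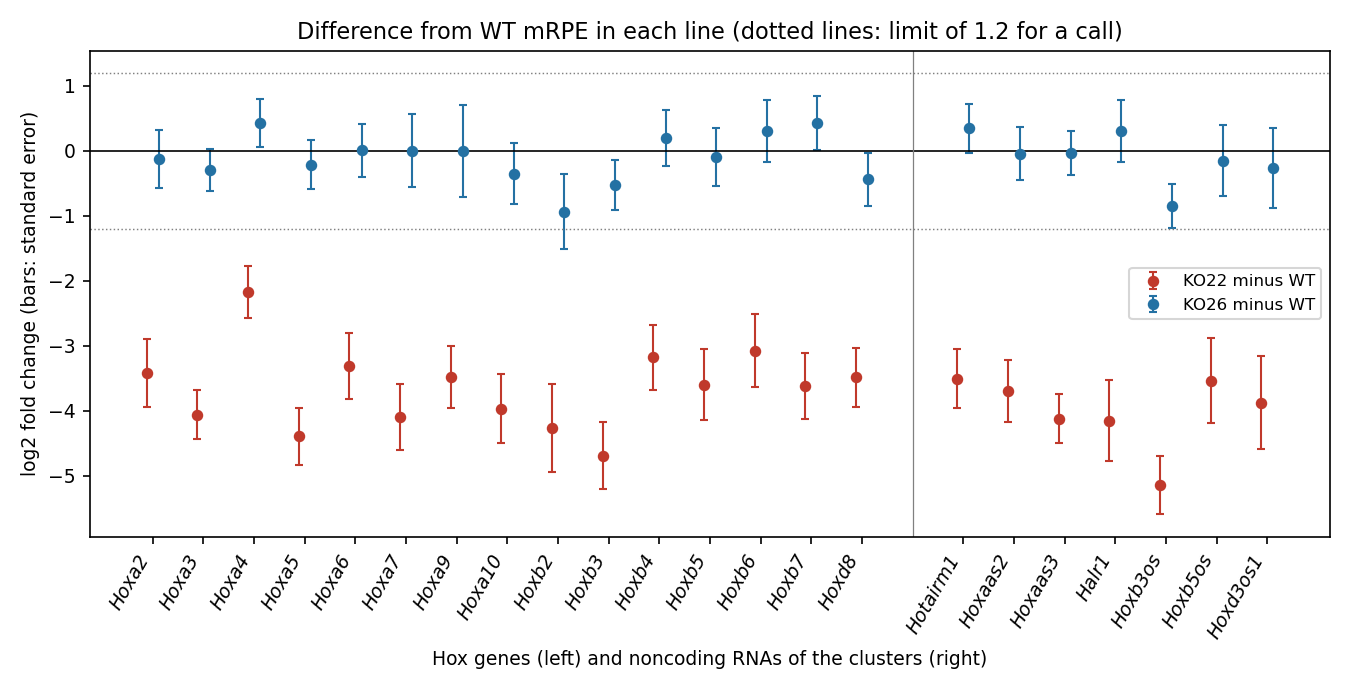
Log2 fold change against WT mRPE (vertical axis) with its standard error for listed Hox genes and 7 noncoding RNAs of the clusters, red for KO22 and blue for KO26. All KO22 points lie below the lower dotted line at -1.2, and all KO26 points lie between the dotted lines.

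The clusters also carry noncoding RNAs, many of them antisense to or between the Hox genes. Of 12 on the list, the mRPE table lists 7, and all 7 were called lower in KO22, beside 13.8% of all genes tested. These RNAs too entered the test through their WT counts. Their log2 fold changes ran from -5.15 for *Hoxb3os* to -3.51 for *Hotairm1*, with a median of -3.88. None of the 7 was called in KO26 by edgeR (1 with an unadjusted p under 0.05) or by DESeq2, and their KO26 fold changes ran from -0.85 to 0.35. Over all genes tested edgeR called 0.719% lower and 1.21% higher in KO26. *Hoxaas3*, the most abundant, had 14.1, 10.0, 9.72 and 12.8 CPM in WT, 0.173, 0.964 and 0.698 CPM in KO22 and 13.9 and 9.48 CPM in KO26. *Hotairm1*, a myeloid-associated RNA of the 3′ end of the cluster, had 1.83, 1.78, 1.47 and 2.08 CPM in WT, 0.0865, 0.241 and 0.0776 CPM in KO22 and 1.48 and 3.12 CPM in KO26. *Hoxb3os* had 4.01, 3.63, 4.42 and 4.52 CPM in WT, 0, 0.145 and 0.155 CPM in KO22 and 1.90 and 2.54 CPM in KO26, so its KO26 libraries were below WT too, with a log2 fold change of -0.85 (SE 0.34, adjusted p = 0.198) in edgeR. *Halr1*, just outside the 3′ end of Hoxa, fell as well, at -4.15 (SE 0.63, adjusted p = 0.000455). *Hoxb5os* and *Hoxd3os1* rest on 3 and 2 counts over the KO22 libraries, and their pooled count ratios of WT over KO22 were 12.03 (exact 95% interval 3.89 to 60.3) and 17.3 (4.55 to 147). The strand setting of the counting is not given in the sources used here, so reads of a Hox gene and of an RNA antisense to it may not have been kept apart.

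The genes around the clusters were examined to see how far the decrease extended. Within the Hoxa span 8 other genes, none annotated as protein-coding, were tested and 8 were called lower in KO22. In the Hoxb span it was 3 of 4, and in the Hoxd span 1 of 1. Outside the spans and within 1 Mb of their ends, 7 of 16 genes were called lower next to Hoxa, 2 of 47 next to Hoxb, 3 of 34 next to Hoxc and 0 of 14 next to Hoxd, beside 13.8% over all genes. The median log2 fold change of these outer genes was -0.98 at Hoxa, 0.21 at Hoxb, 0.66 at Hoxc and 0.29 at Hoxd. Of the 4 medians that at Hoxa was the one below 0, and chromosome 6 as a whole was lower too. Without the Hox genes, chromosome 6 had a median of -0.44 with 21.7% of 1073 genes called lower, against medians of -0.02 for chromosome 11, 0.37 for chromosome 15 and 0.15 for chromosome 2. The median log2 fold change was -3.48 over the listed Hoxa genes and -3.61 over those of Hoxb, and *Hoxd8* had -3.49. The part of the chromosome-wide shift in the Hoxa values was not tested.

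Of 11 named neighbours of the clusters, 9 are listed and 2 were called lower in KO22, beside 13.8% of all genes, *Skap2* and *Skap1*, which encode related adaptor proteins and flank Hoxa and Hoxb. *Skap2* had 83.8, 78.6, 73.7 and 73.4 CPM in WT and 10.9, 20.8 and 19.3 CPM in KO22, with a change of -2.19 (SE 0.19, adjusted p = 1.85e-05) on the log2 scale. The 2 KO26 libraries of *Skap2*, at 72.8 and 82.7 CPM, were at the level of WT. *Skap1*, at few counts, had 0.397, 0.548, 0.589 and 0.718 CPM in WT and 0, 0.241 and 0 CPM in KO22, with a change of -2.36 (SE 0.74, adjusted p = 0.023) on the log2 scale. *Snx10*, beyond *Skap2*, had a log2 fold change of -0.24 (SE 0.18, adjusted p = 0.301), and the Hoxd neighbours *Lnpk*, *Mtx2* and *Atf2* had 0.65, 0.53 and 0.13, none called. The Hoxc neighbours *Smug1*, *Cbx5* and *Hnrnpa1* were not called either, at 0.60, 1.14 and 0.27. *Calcoco2* and *Ttll6* are not listed.

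**Figure D5:**
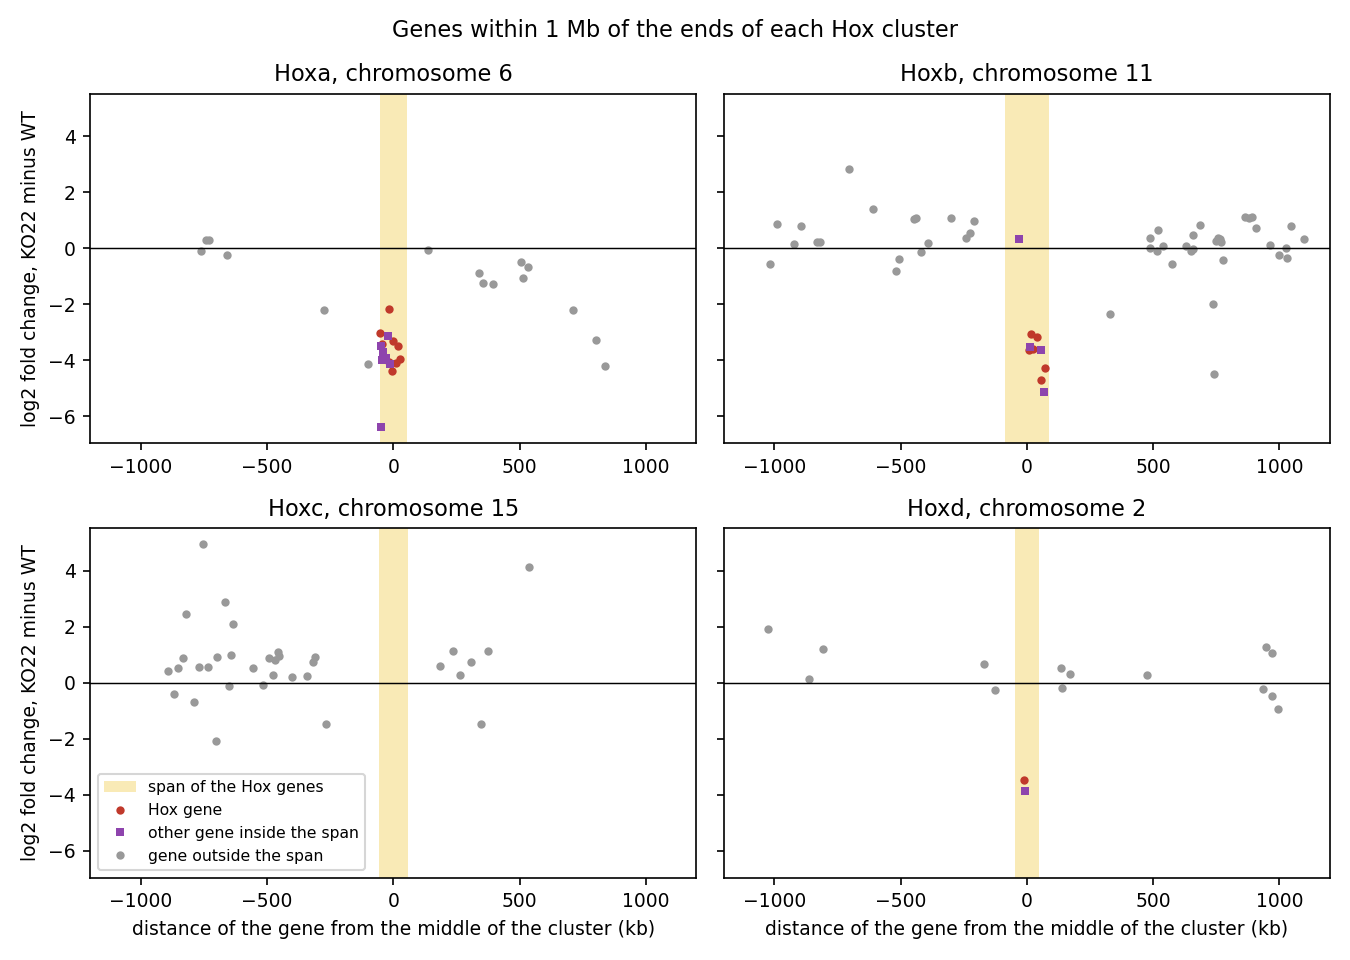
Log2 fold change of KO22 against WT (vertical axis) for genes within 1 Mb of the ends of each Hox cluster, by distance from the middle of the cluster in kb. Yellow marks the span of the Hox genes, red points Hox genes, purple squares other genes inside the span and grey points genes outside it. Inside the spans of Hoxa, Hoxb and Hoxd the points lie between -2 and -7 except 1 purple square at Hoxb, and no gene is plotted inside the Hoxc span.

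The TALE partners of Hox proteins were present in all groups. All 9 on the list are listed, and in KO22 1 was called lower and 0 higher, where 13.8% of all genes were called lower and 11.4% higher, with a median log2 fold change of -0.79. *Pknox2* was the one called, at 55.6 ± 1.61 CPM in WT and 9.80 ± 3.85 CPM in KO22 (SD, n = 4 and 3) and a log2 fold change of -2.51 (SE 0.20, adjusted p = 1.28e-05). *Meis2* had 173 ± 12.6 CPM in WT and 74.8 ± 11.2 CPM in KO22. Its log2 fold change of -1.197 stood just inside the limit of 1.2 with an adjusted p of 1.78e-05 in edgeR. *Meis1* had 12.4 ± 1.11 and 6.07 ± 0.627 CPM, a log2 difference of -1.02. *Pknox1* had the highest value of the list at 1.12. The count called lower was 1 to 3 when single libraries were left out, and 3 with edgeR's own filter on low counts.

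Among regulators of Hox chromatin, 1 of 17 Polycomb genes was called lower in KO22 and 0 higher, beside 13.8% and 11.4% of all genes, with a median log2 fold change of -0.19. It was *Ezh1*, an H3K27 methyltransferase, at 65.9 ± 9.73 CPM in WT and 24.0 ± 5.23 CPM in KO22, a change of -1.42 (SE 0.10, adjusted p = 6.43e-06) on the log2 scale. Its relative *Ezh2* had 39.2 ± 4.49 CPM in WT and 84.5 ± 28.4 CPM in KO22, a log2 difference of 1.08 that stayed under the limit. In the KO26 libraries *Ezh2* had 86.4 and 64.8 CPM. The core subunits *Suz12* and *Eed* had log2 differences of 0.87 and 0.51 in KO22. Of 9 trithorax genes and H3K27 demethylases 1 was called higher, again beside 11.4% of all genes. It was *Ash2l*, at 34.1 ± 4.44 CPM in WT and 83.7 ± 7.65 CPM in KO22, a change of 1.29 (SE 0.13, adjusted p = 3.88e-05) on the log2 scale. Without 9262-SB-4 or without 9262-SB-5, 0 of these genes were called higher, and without 8995-SB-1 or 8995-SB-2 the count was 2. *Kmt2a*, whose product maintains Hox expression, had a log2 fold change of 0.00 (SE 0.12), and the demethylase genes *Kdm6a* and *Kdm6b* had -0.20 and -0.26. The part of these regulators in the Hox result was not tested.

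Homeobox genes of the rostral head were compared next, since the eye is patterned by these and not by Hox genes. Of 11 the mRPE table lists 6, and 3 were called lower in KO22, beside 13.8% of all genes, where the list had a median of -1.28 on the log2 scale. The count was 2 without 8995-SB-1, 8995-SB-2 or 9262-SB-3. *Otx1* had 3.81 ± 1.00 CPM in WT and 0.460 ± 0.458 CPM in KO22, a change of -2.91 (SE 0.52, adjusted p = 0.00124) on the log2 scale. *Vax2*, a gene of the ventral retina, had 2.14 ± 0.650 and 0.306 ± 0.274 CPM, a change of -2.64 (SE 0.57, adjusted p = 0.00384) on the log2 scale. *Lhx2*, needed for the optic vesicle, had 2.08 ± 0.489 and 0.799 ± 0.694 CPM, a change of -1.40 (SE 0.51, adjusted p = 0.0417) on the log2 scale. In KO26 *Lhx2* lay above WT instead, at 4.78 and 7.98 CPM against 1.47 to 2.65 CPM. Its log2 fold change of 1.86 there (SE 0.45, adjusted p = 0.0521 in edgeR's quasi-likelihood test) was not called. Of the 6 listed genes 0 were called in KO26, beside 0.719% of all genes lower and 1.21% higher, with 4 negative and 2 positive values. *Otx2*, *Rax*, *Six3*, *Six6* and *Vax1* are not listed in mRPE.

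Of 24 genes that mark position in cranial and limb mesenchyme, 17 are listed in mRPE and 16 could be tested in KO22. There 2 were called lower, *Msx2* and *Foxd1*, beside 13.8% of all genes, 0 were called higher beside 11.4%, and the median log2 fold change was -0.32. *Msx2* had 3.89 ± 0.820 CPM in WT and 0.161 ± 0.202 CPM in KO22, a change of -4.59 (SE 0.55, adjusted p = 0.000121) on the log2 scale, and *Foxd1* had 5.78 ± 0.921 and 1.66 ± 0.747 CPM, a change of -1.84 (SE 0.31, adjusted p = 0.000954) on the log2 scale. *Prrx1*, a limb and craniofacial mesenchyme gene, was the most abundant at 285 ± 9.69 CPM in WT, 405 ± 15.3 CPM in KO22 and 222 ± 6.59 CPM in KO26 (SD, n = 4, 3 and 2). Its KO22 level, with a log2 fold change of 0.51, was not called. Of the 8 ParaHox and Evx genes, close relatives of the Hox genes, 0 are listed in mRPE.

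In RPE/choroid no Hox comparison could be made, since 0 of the 39 Hox genes and 0 of the 12 noncoding RNAs of the clusters are listed. The libraries of the tissue held more counts than any mRPE library, and the table reaches down to genes with 15 counts over its 6 libraries. All 12 RPE markers are listed there, at 2597 to 3544 summed CPM in WT and 1273 to 1436 in *Prom1*-KO. The lower sum was uneven over the list. Of the 12, 3 were called lower, beside 0.189% of all genes tested, and 9 were not called. *Rgr* had 759, 546 and 786 CPM in WT and 6.70, 30.7 and 18.3 CPM in *Prom1*-KO. *Dct* had 545, 517 and 315 CPM in WT and 591, 570 and 619 CPM in *Prom1*-KO. On the log2 scale 10 of the 12 values were negative and 2 positive. Of the 5 rostral genes not listed in mRPE 4 were listed here, with *Otx2* at 40.9 ± 12.4 CPM, *Six3* at 29.9 ± 6.13, *Rax* at 2.27 ± 1.38 and *Six6* at 1.03 ± 0.724 CPM in WT (SD, n = 3), each table being scaled on its own. *Vax1* is not listed in the tissue. The 9 TALE genes were all listed, with *Meis2* at 30.9 ± 5.12 and *Meis1* at 16.3 ± 4.64 CPM in WT, and 0 of 9 were called in *Prom1*-KO by edgeR (0 with an unadjusted p under 0.05), the one tool run on these lists in the tissue. In that contrast 0% of all genes were called higher and 0.189% lower. The position gene *Prrx1* was at 16.2 ± 3.41 CPM in WT tissue.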

How the data were processed

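RNA-seq was measured in 9 mRPE and 6 RPE/choroid libraries. Per the submitters' processing notes, reads were trimmed with Trim Galore 0.6.7, aligned with STAR to mm39 and normalised with DESeq2 1.42.0. The authors deposited raw counts per gene, after removing mRPE genes with low counts, and a second signal table of those counts divided by 1 size factor per library. The counts were used for all tests and levels, and the signal table only to check the counts. For the tissue table the filter is not given in the sources used here. Of columns with per-sample values, 0 were left unused for want of a sample.

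Groups came from the labels. Genes that reached 5 counts in 3 or more libraries entered the test, over each whole table, with edgeR 4.0.16 (R 4.3.3), by the quasi-likelihood test on TMM-scaled counts with a term for the library series in mRPE and Benjamini-Hochberg adjustment. KO22 against WT used 7 libraries, and the contrasts with KO26 used all 9. Calls required a log2 fold change beyond 1.2 in either direction at an adjusted p below 0.05. CPM was computed with no added count. The procedure was tested on simulated data. All 39 Hox genes are accounted for in the counts, with values per library for called members, and a few genes and 1 sequence are not reported here. The members, gene lists and tests were chosen with earlier results of these data known. Alternatives were DESeq2's size factors and test, other filters, no fold limit, no series term, series 9262 alone, other sets of libraries and leaving out each library. Total counts per library set the precision, and intervals cover counting error only. Start sites and transcript lengths came from the GRCm39 annotation.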

Additional observations from a re-analysis of the deposited data

Results flagged for a closer look

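Of 16 WT groups examined for a library far from the others, *Hoxd8* had one. It was 8995-SB-1 at 7.99 CPM against 5.45 to 5.83 CPM in the other 3 WT libraries. Chance alone gives about 1 such group in 20. As 8995-SB-1 is the one WT library of series 8995, a difference of the library and of its series cannot be told apart.

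For all 16 Hox genes the difference between the lines, tested as its own contrast with edgeR's quasi-likelihood test, passed the limits for a call, so KO22 and KO26 differed under the same comparison with WT. The log2 difference, KO22 minus KO26, was -3.34 for *Hoxa2* and -3.78 for *Hoxa3*. It was -2.60 for *Hoxa4*, -4.17 for *Hoxa5*, -3.32 for *Hoxa6* and -4.09 for *Hoxa7*, and -3.45 for *Hoxa9* and -3.61 for *Hoxa10*. In Hoxb it was -3.31 for *Hoxb2*, -4.17 for *Hoxb3*, -3.40 for *Hoxb4*, -3.52 for *Hoxb5*, -3.42 for *Hoxb6* and -4.03 for *Hoxb7*, and it was -3.04 for *Hoxd8*. Each edited line is a single line, so a difference between lines and a difference between edits cannot be told apart.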

How the results depend on the processing

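All 16 Hox genes were called lower in KO22 against WT under each of the 15 alternatives run, and 0 were called in KO26. Against KO26, 16 were called under all alternatives but 3: 15 with series 9262 alone and without 8995-SB-3, where *Hoxb2* was lost (-2.40 and -2.64), and 11 of the 11 tested with the 5 libraries alone. The sign of the KO26 difference from WT, never called, turned for *Hoxa7* with DESeq2's test (0.12), for *Hoxa6* without the series term (-0.15) or with the groups alone (-0.081), and with series 9262 alone for *Hoxa2* (0.34) and *Hoxb5* (0.15). With 1 library left out it ran from -0.69 to 0.47 for *Hoxa2*, -0.48 to 0.034 for *Hoxa3*, -0.43 to 0.017 for *Hoxa5*, -0.12 to 0.30 for *Hoxa6*, -0.37 to 0.37 for *Hoxa7*, -0.36 to 0.41 for *Hoxa9*, -0.49 to 0.081 for *Hoxa10*, -0.37 to 0.85 for *Hoxb4*, -0.33 to 0.27 for *Hoxb5* and -0.13 to 0.96 for *Hoxb6*. The cause was not tested. The Hoxa sum in KO26 was 49.1 CPM on library totals. Alternatives for the gene lists were chosen after seeing the data. TALE genes called lower in KO22 numbered 2 with DESeq2's size factors, DESeq2's test, no series term or series 9262 alone, 3 with edgeR's filterByExpr, and 1 to 3 with 1 library left out (2 without 8995-SB-1, 8995-SB-2, 9262-SB-1 or 9262-SB-3, 3 without 9262-SB-4 or 9262-SB-5). Neighbours called lower numbered 1 with filterByExpr and 1 to 2 with 1 library left out (1 without 9262-SB-3 or 9262-SB-5), and called higher 1 with series 9262 alone and 0 to 1 (1 without 8995-SB-1 or 8995-SB-2). Polycomb genes called higher numbered 1 with series 9262 alone and 0 to 1 (1 without 8995-SB-1 or 8995-SB-2), and called lower 1 to 2 (2 without 9262-SB-2 or 9262-SB-4). Trithorax genes called higher numbered 2 with series 9262 alone and 0 to 2 (2 without 8995-SB-1 or 8995-SB-2, 0 without 9262-SB-4 or 9262-SB-5). In RPE/choroid no alternative can give a Hox value. No paired analysis was possible because the library numbers do not mark replicates shared between groups. In 8995-SB-2, 6 Hox counts limit any order among its genes.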

Other observations

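The remaining marker lists of the mRPE libraries had low summed levels. The 2 listed of 5 macrophage markers summed to 7.61 to 9.33 CPM in WT and 10.2 to 13.8 CPM in KO22, and the 2 listed of 5 epithelial markers to 0.119 to 0.754 CPM in WT and 1.47 to 9.86 CPM in KO22. The 4 listed of 6 photoreceptor markers summed to 4.57 to 8.05 CPM in WT and 3.34 to 8.82 CPM in KO22.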
